A study of Mus musculus with 6 samples.

Results

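The 33 genes described here encode the chaperones, folding enzymes, sensors, degradation factors and translocation channel of the endoplasmic reticulum (ER). They were chosen by name, as the rows of the deposited gene tables whose symbol matched a list of ER chaperone and unfolded protein response genes, and all 33 were found among 23038 genes listed. The cells were NSC-34, a mouse hybrid of neuroblastoma and spinal motor neuron, grown in DMEM with fetal calf serum. Of the 6 mRNA libraries, 3 came from cells given control siRNA (siNC) and 3 from cells given siRNA against Qk (siQk), the gene of the Quaking RNA-binding proteins. The study used 3 different siRNAs against Qk, numbered from 1 to 3 as the siQk libraries are in their titles, though no label states that a library's number is that of its siRNA, so replicate spread within siQk may hold differences between siRNAs. Cells were collected 72 hours after transfection. The comparison asks which of these transcripts differ in level when Quaking is depleted.

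Secreted and membrane proteins enter the ER through the Sec61 channel and fold there with the help of Hsp70 and Hsp90 type chaperones, lectin chaperones that read their glycans and enzymes that form disulfide bonds. When unfolded proteins build up, the sensors IRE1, ATF6 and PERK start the unfolded protein response. IRE1 splices the Xbp1 transcript, ATF6 is cleaved to a transcription factor, and PERK slows translation and raises ATF4, and together they induce chaperone and degradation genes. Motor neurons carry a large secretory and axonal protein load, and this response has long been studied in motor neuron disease.

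Library totals ran from 43000503 to 53565950 expected counts. Qk itself had 9.67, 8.18 and 14.9 RPKM in siNC and 1.39, 1.71 and 1.10 RPKM in siQk, where RPKM is the count divided by exon length and library total. Its siQk mean was 12.8% of the siNC mean (log2 fold change -2.99, SE 0.34, edgeR adjusted p = 0.0136), and every siQk library lay below every siNC library. The first principal component (41.2% of the variance) set siQk replicate 2 apart and the second (28.9%) set siNC replicate 3 apart. Of 13 motor neuron and neuron markers, 4 (Chat, Mnx1, Lhx3 and Stmn2) stayed under 1 RPKM in every library, among them Chat, the enzyme that makes acetylcholine. The summed level of the 13 was 354 to 675 RPKM in siNC and 470 to 699 RPKM in siQk. Within it Isl1, a motor neuron transcription factor, had 4.83, 4.75 and 4.80 RPKM in siNC and 9.63, 7.80 and 8.33 RPKM in siQk, without overlap (edgeR adjusted p = 0.9998). The astrocyte, microglia and fibroblast markers, 4 of each, were all under 1 RPKM in every library. Of 5 oligodendrocyte markers, 4 were also under 1 RPKM, and their sum was 3.26 to 3.73 RPKM in siNC and 1.79 to 2.92 RPKM in siQk.

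The response acts at the promoters of its target genes, so elements tied to it are shown first. The ER stress response element (ERSE), bound by ATF6 and XBP1 together with NF-Y, was searched as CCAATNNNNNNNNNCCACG on both strands, in windows from 250 bases before to 50 bases after each RefSeq start (GRCm38.p6). Windows were found for 28 of the 33 genes. Derl1, Hyou1, Manf, Atf6 and Sec61a1 had no window and were not searched. The element was present in 9 of the 28 (32.1%) and in 37 of 27025 genes with a window (0.137%). The genes were chosen by name as genes of this response, so such shares describe the list and were not tested. The 9 were Calr, Canx, Creld2, Derl3, Dnajc3, Hsp90b1, Hspa5, Pdia6 and Syvn1, and Hsp90b1 held 2 copies. The copies of 5 genes are printed with 12 bases on either side, 5′ to 3′ on the strand that reads CCAAT first, with the element in capitals, because these genes include the most abundant chaperones and the gene with the smallest p among those that carry it.
Hspa5: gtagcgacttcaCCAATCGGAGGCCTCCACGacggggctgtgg
Hsp90b1, far copy: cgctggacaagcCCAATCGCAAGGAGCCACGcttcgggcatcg
Hsp90b1, near copy: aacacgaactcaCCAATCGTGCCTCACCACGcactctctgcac
Calr: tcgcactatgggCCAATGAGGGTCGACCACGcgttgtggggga
Pdia6: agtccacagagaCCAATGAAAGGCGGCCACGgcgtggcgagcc
Creld2: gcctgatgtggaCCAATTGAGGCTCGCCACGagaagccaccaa
The printed stretches lie at chr2:34772013-34772055 for Hspa5, chr10:86705626-86705668 and chr10:86705521-86705563 for Hsp90b1, chr8:84847063-84847105 for Calr, chr12:17266479-17266521 for Pdia6 and chr15:88819508-88819550 for Creld2. The element read on the strand of the gene in Hspa5, Pdia6 and the far copy of Hsp90b1, and on the opposite strand in Calr, Creld2 and the near copy. All 6 copies lie upstream of the annotated start.

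A shorter relative, ERSE-II (ATTGGNCCACG), was found in Herpud1 and Dnajb11, which is 7.14% of the 28 genes, against 0.0444% of all genes with a window. Both elements join CCACG to a CCAAT box, which ERSE-II reads on the other strand and at a shorter distance. Herpud1 also held the only TTGCATCA, an ATF4-type element, among the 28 (3.57%, against 1.03% of all genes). Both are shown for Herpud1, which had the highest level of the degradation genes.
Herpud1, ERSE-II: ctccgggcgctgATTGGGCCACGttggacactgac
Herpud1, ATF4-type: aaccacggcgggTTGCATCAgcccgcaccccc
They lie at chr8:94386365-94386399 and chr8:94386305-94386336, both upstream of the start and read on the strand of the gene. TGACGTGG, an XBP1 type element, was in 0 of the 28 windows and in 0.714% of all genes. A match of letters is a description of the window and does not show that a factor binds there.

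None of the ER genes passed the test after Qk depletion. Of the 33, 32 were expressed above the filter and tested. At the study's cutoffs 0 were called changed (edgeR quasi-likelihood test, p under 0.01 with an adjusted p under 0.1). By the same test 0.0079% of all 12665 genes tested were called, which was Qk alone. With edgeR and these cutoffs, without naming which edgeR test, the study itself reported L3hypdh, Daam2 and Snap23 as down-regulated besides Qk. By the edgeR exact test and by DESeq2, which called 0.0395% and 0.15% of all genes, the count of ER genes called was also 0. At an unadjusted p under 0.05 in the quasi-likelihood test, 2 ER genes were higher in siQk (Creld2 and Sec61b), against 1.27% of all genes. In the same test 1 was lower (Atf6), against 1.73%. The groups did not overlap in RPKM for 3 genes higher in siQk (Manf, Creld2 and Sec61b; 5.35% of all genes) and for 4 lower (Herpud1, Sel1l, Atf6 and Sec61a1; 3.49% of all genes). The log2 fold change was above 0 for 18 genes and below 0 for 14, with a median of 0.05, where the median of all genes tested was 0.0027. The adjusted p was 0.9998 for each of the 32.

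**Figure D1:**
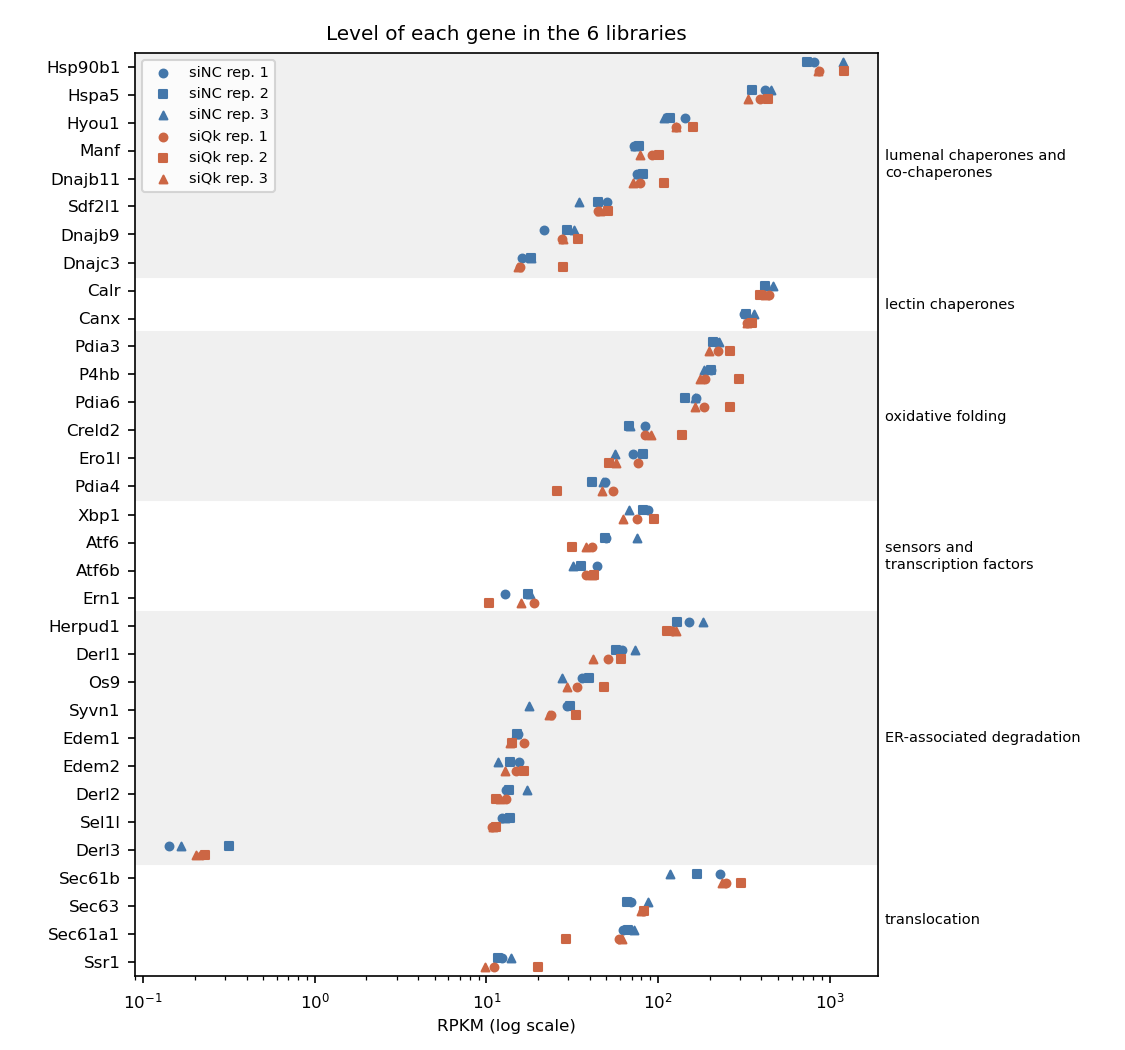
Level of the 33 ER genes in RPKM (log axis) in the 3 siNC (blue) and 3 siQk (orange) libraries, in rows by role, with the replicate number given by the marker shape. Levels run from under 1 RPKM for Derl3 to 1207 RPKM for Hsp90b1 in siQk replicate 2, and for most genes the colours overlap.

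Of the 6 roles, the lumenal chaperones took the highest summed share of counts in every library. Hsp90b1, the ER Hsp90 (GRP94), had the highest mean RPKM of the 33 and rank 22 among all genes tested. It had 806, 737 and 1188 RPKM in siNC and 862, 1207 and 857 RPKM in siQk. The highest value of each group was from a different replicate number, siNC 3 and siQk 2, and the groups overlapped (log2 fold change 0.06, SE 0.29). Of its annotated exon bases, 15.7% are shared with other genes, some on the opposite strand, and the kit as named keeps no strand. Hspa5, the Hsp70 of the ER (BiP) and the master chaperone of the response, ran from 334 to 456 RPKM with overlapping groups and a log2 fold change of -0.11 (SE 0.17). Its level per length was thus below that of Hsp90b1 in every library, with Hsp90b1 over Hspa5 at 1.92 to 2.75.

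Manf, a secreted ER stress factor that protects neurons, was the chaperone-class gene with the smallest p. It had 72.8, 77.4 and 73.6 RPKM in siNC and 91.8, 100.6 and 78.2 RPKM in siQk. All 3 siQk libraries lay above all 3 siNC libraries, though siQk replicate 3 exceeded siNC replicate 2 by less than 1 RPKM. Of the annotated exon bases of Manf, 9.25% are shared with other genes, mostly on the opposite strand. The log2 fold change was 0.25 (SE 0.10), or 0.16 without siQk replicate 2, and the exact permutation p of 0.1 is the smallest that 3 against 3 libraries can give. The Hspa5 partners Dnajb9, Dnajb11 and Dnajc3 (J-domain co-chaperones), Hyou1 (a nucleotide exchange factor) and Sdf2l1 had log2 fold changes from 0.08 to 0.15, with overlapping groups in each, and Hyou1 ran from 0.03 to 0.27 when a library was left out. Over the 8 genes of this role the median log2 fold change was 0.11, with 7 above 0 and 1 below. Both rest on siQk replicate 2: without it the median was -0.06, with 3 above 0 and 5 below.

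**Figure D2:**
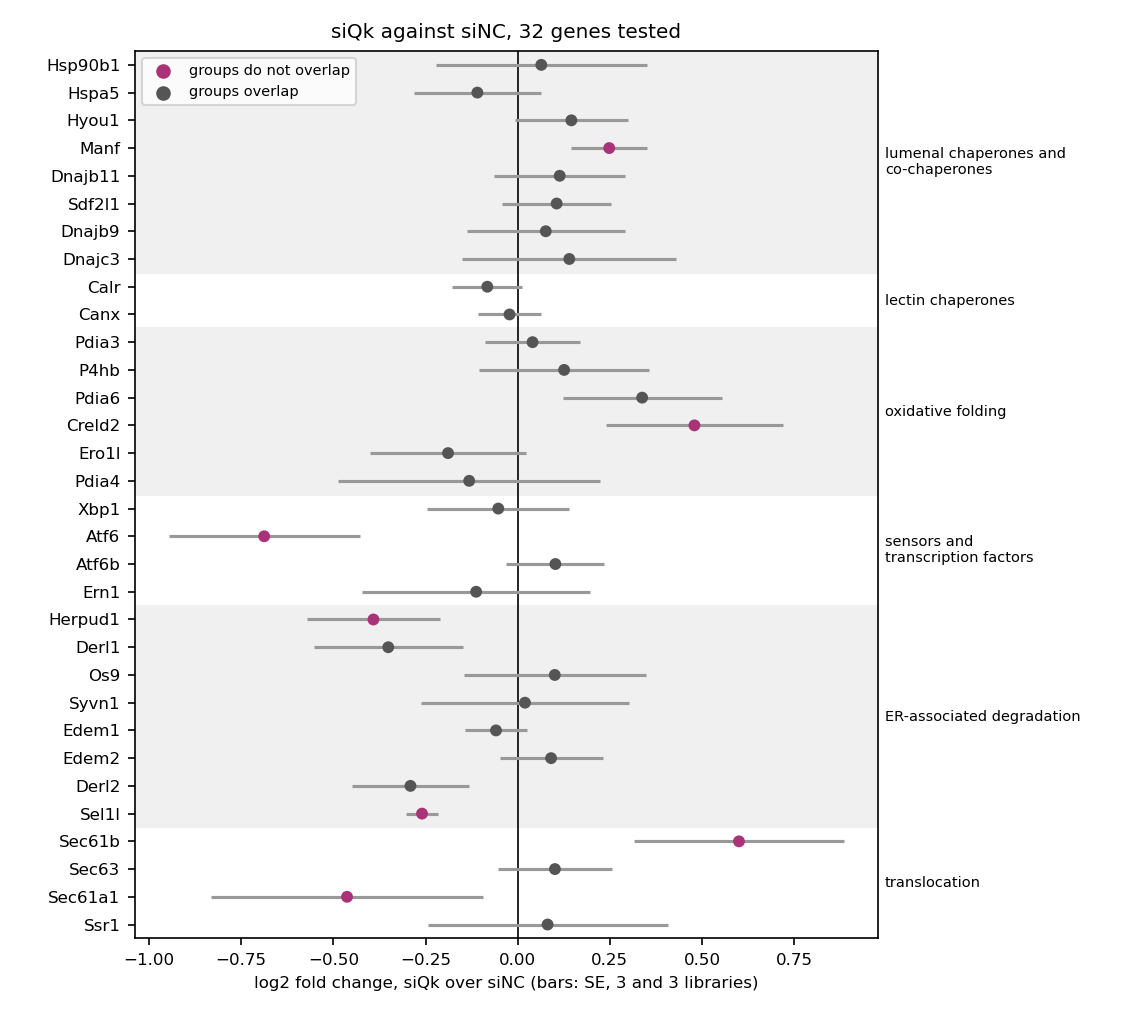
Log2 fold change of siQk over siNC for the 32 ER genes tested, by role, with bars for the SE from the spread between 3 and 3 libraries; purple marks genes whose groups do not overlap. Atf6 (-0.69) and Sec61b (0.60) lie at the ends, and 18 genes lie above 0.

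The lectin chaperones calreticulin (Calr) and calnexin (Canx), which hold glycoproteins until they fold, varied little. Calr had 421, 417 and 465 RPKM in siNC and 443, 391 and 420.3 RPKM in siQk, and the groups overlapped. Its log2 fold change was -0.08 (SE 0.10), and ran from -0.14 to -0.0027 when a library was left out. Canx lay between 318 and 361 RPKM in the 6 libraries, with a log2 fold change of -0.02 (SE 0.09).

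Among the 6 oxidative folding genes, Creld2 stood out by p, with the ERSE printed above in its window. Creld2, a disulfide isomerase-like ER protein, had 83.8, 67.9 and 68.9 RPKM in siNC and 84.0, 138 and 90.9 RPKM in siQk. The siQk libraries lay above the siNC libraries, but siQk replicate 1 exceeded siNC replicate 1 by under 1 RPKM and siQk replicate 2 was far above the rest. This gave a log2 fold change of 0.48 (SE 0.24; adjusted p = 0.9998 by edgeR), and 0.23 without siQk replicate 2. Pdia3, the isomerase that works with the lectin chaperones and the most abundant gene of the role, had 218, 209.9 and 226 RPKM in siNC and 225, 263 and 197 RPKM in siQk. Its siQk values spanned the siNC values at both ends (log2 fold change 0.04, SE 0.13). Of the isomerases P4hb, Pdia4 and Pdia6 and the oxidase Ero1l, 2 had positive log2 fold changes (0.13 for P4hb and 0.34 for Pdia6) and 2 had negative ones (-0.13 for Pdia4 and -0.19 for Ero1l), all with overlapping groups. Without siQk replicate 2, P4hb turned to -0.15 and Pdia4 to 0.13 and Pdia6 was at 0.12, and leaving out a library moved Ero1l between -0.37 and -0.08.

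**Figure D3:**
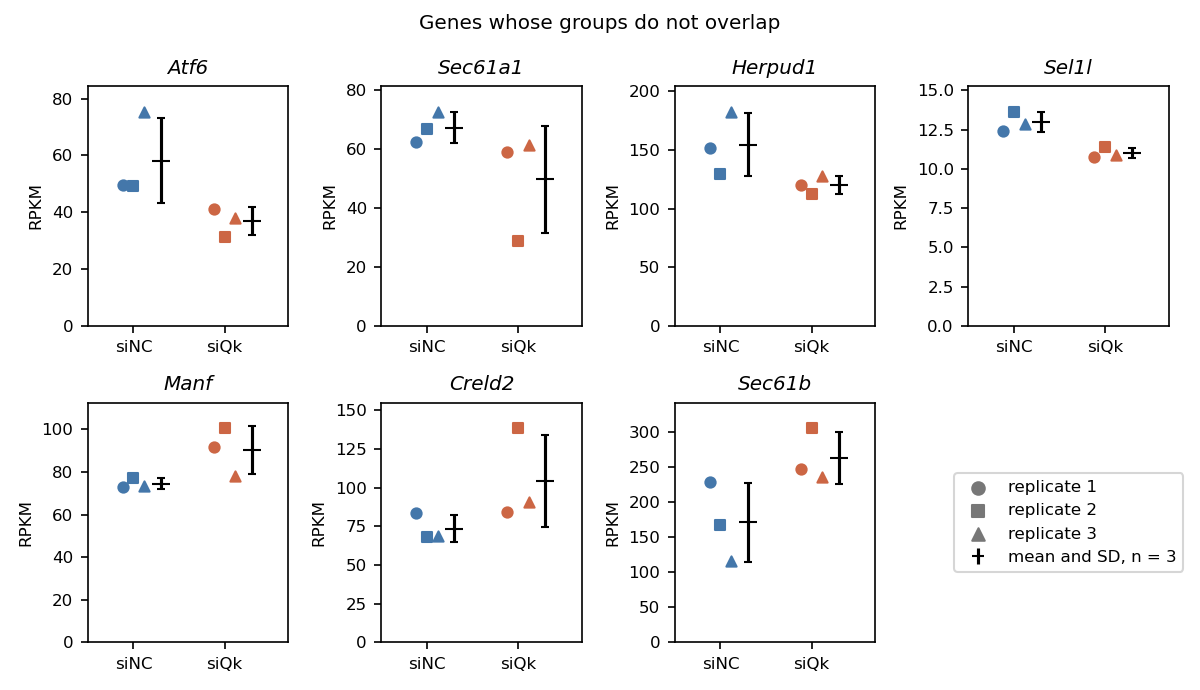
RPKM per library of the 7 ER genes whose siNC and siQk groups do not overlap, on axes that start at 0, with the mean and SD (n = 3) beside the points. Atf6, Sec61a1, Herpud1 and Sel1l are lower in siQk and Manf, Creld2 and Sec61b higher, and siQk replicate 2 is the far point for Sec61a1 and Creld2.

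Of the sensors and transcription factors, Atf6 had the smallest p of all 32 genes. Atf6 (chr1:170704457-170868585, minus strand in GRCm38) encodes the membrane-bound factor that is cut in the Golgi to activate chaperone genes. It had 49.7, 49.2 and 75.4 RPKM in siNC and 41.2, 31.4 and 38.1 RPKM in siQk. Every siQk library lay below every siNC library, and the widest gap was to siNC replicate 3. The siQk mean was 63.5% of the siNC mean, and the log2 fold change was -0.69 (SE 0.26, edgeR adjusted p = 0.9998). Without siNC replicate 3 it was -0.42. None of its annotated exon bases is shared with another gene. Its relative Atf6b had overlapping groups and a log2 fold change of 0.10 (SE 0.13), which ran from 0.02 to 0.24 when a library was left out. The ratio of Atf6 to Atf6b in RPKM, chosen after the values were seen, was 1.13, 1.38 and 2.37 in siNC and 1.08, 0.739 and 0.927 in siQk.

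Xbp1, the transcript spliced by IRE1, had 87.6, 81.8 and 67.8 RPKM in siNC and 74.9, 95.2 and 62.4 RPKM in siQk. The groups overlapped, and siQk held both the highest and the lowest library (log2 fold change -0.05, SE 0.19). These values sum all Xbp1 isoforms, so they do not measure its splicing. Ern1, which encodes IRE1, was low, from 10.4 to 18.9 RPKM, with a log2 fold change of -0.11 (SE 0.31).

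The 9 ER-associated degradation genes recognise misfolded proteins, draw them out of the ER and mark them with ubiquitin. Herpud1, a scaffold of the ubiquitin ligase complex and a strong target of the response, was the most abundant. It had 151, 129 and 183 RPKM in siNC and 121, 112 and 128 RPKM in siQk. The siQk libraries all lay below the siNC libraries, with siQk replicate 3 and siNC replicate 2 about 1 RPKM apart. The log2 fold change was -0.39 (SE 0.18) and the edgeR adjusted p was 0.9998; without siNC replicate 3, and by voom, it was -0.22. Sel1l, the adaptor of the ligase Syvn1 (HRD1), had 12.4, 13.6 and 12.8 RPKM in siNC and 10.7, 11.4 and 10.9 RPKM in siQk. Its libraries were close together within each group and apart between groups, at 85.0% of the siNC mean. The log2 fold change was -0.26 (SE 0.04, edgeR adjusted p = 0.9998); this SE uses only the spread of Sel1l itself, while the edgeR test shares the spread across genes.

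Syvn1, the ligase itself, had overlapping groups from 17.7 to 33.3 RPKM and a log2 fold change of 0.02 (SE 0.28). The channel candidates Derl1 and Derl2 had log2 fold changes of -0.35 (SE 0.20) and -0.29 (SE 0.16), with overlapping groups. Without siNC replicate 3 these were -0.21 and -0.13. Edem1 and Edem2, which belong to the mannosidases that trim the glycans of misfolded proteins, and Os9, the lectin that reads them, lay between -0.06 and 0.10. Derl3 was below the filter, at 0.141 to 0.318 RPKM and 10 to 21 counts, and was not tested. Over the 8 tested genes the median log2 fold change was -0.16, with 3 above 0 and 5 below, and without siQk replicate 2 it was -0.21, with 1 above 0 and 7 below.

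The translocation genes held 2 subunits of the Sec61 channel with log2 fold changes of opposite sign. Sec61b, the small beta subunit of the Sec61 channel, had 229, 168 and 117 RPKM in siNC and 248, 305 and 235 RPKM in siQk. All siQk libraries lay above all siNC libraries, and the siNC libraries themselves spread by more than those of siQk. The log2 fold change was 0.60 (SE 0.28, edgeR adjusted p = 0.9998), with 0.40 without siNC replicate 3 and 0.86 without siNC replicate 1. Sec61b has a summed exon length of 552 bases, and the 874 genes tested that are under 1000 bases deviated from the siNC mean by a median of 0.16 in siNC replicate 1 and -0.15 in siNC replicate 3 (log2 CPM). With the trend on exon length removed from each library, the log2 fold change was 0.55.

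Sec61a1, the channel-forming alpha subunit, had 62.6, 66.9 and 72.8 RPKM in siNC and 59.1, 28.9 and 61.3 RPKM in siQk. The groups did not overlap, but siQk replicates 1 and 3 lay just under siNC and replicate 2 was far lower. Its log2 fold change of -0.46 (SE 0.37) moved to -0.19 without siQk replicate 2. Of its annotated exon bases, 8.16% are shared with an antisense gene. Sec63, which couples the channel to Hspa5, and Ssr1, a subunit of the translocon-associated complex, had log2 fold changes of 0.10 (SE 0.15) and 0.08 (SE 0.33) with overlapping groups.

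A single library held many of the extreme values. In siQk replicate 2, 17 of the 32 genes had their highest and 8 their lowest RPKM of the 6 libraries. That is 78.1%, against 50.6% of all genes tested and 70.8% of 120 other genes of the pathway. This library was singled out after its values were seen. Its median deviation from the siNC mean in log2 CPM was 0.23 over the ER genes, 0.15 over the other pathway genes and 0.02 over all genes. By list, the other pathway genes were at 0.40 for N-glycosylation, 0.37 for oxidative folding, 0.36 for translocation and 0.24 for degradation. The other lumenal chaperones were at 0.09, the other sensor genes at -0.04 and the PERK list at -0.58. The shift was thus shared by the lists most like these genes. Against the mean of the other siQk libraries, 11 ER genes were above 130% (34.4%, against 18.9% of all genes) and 3 were below 70% (9.38%, against 14.9%). The highest were Ssr1 at 191%, Dnajc3 at 181% and P4hb at 163%. The lowest were Sec61a1 at 48.0%, Pdia4 at 50.1% and Ern1 at 59.7%. Genes of 1 role thus went in opposite directions in this library. P4hb over Pdia4 was 11.5, against 3.41 to 4.95 in the other libraries. Sec61b over Sec61a1 was 10.6, against 1.60 to 4.20 in the others. Both ratios use genes just named for being far from the other siQk libraries, so their distance here follows from that choice. Without this library the median log2 fold change of the 32 genes was -0.08. What sets this library apart was not tested.

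**Figure D4:**
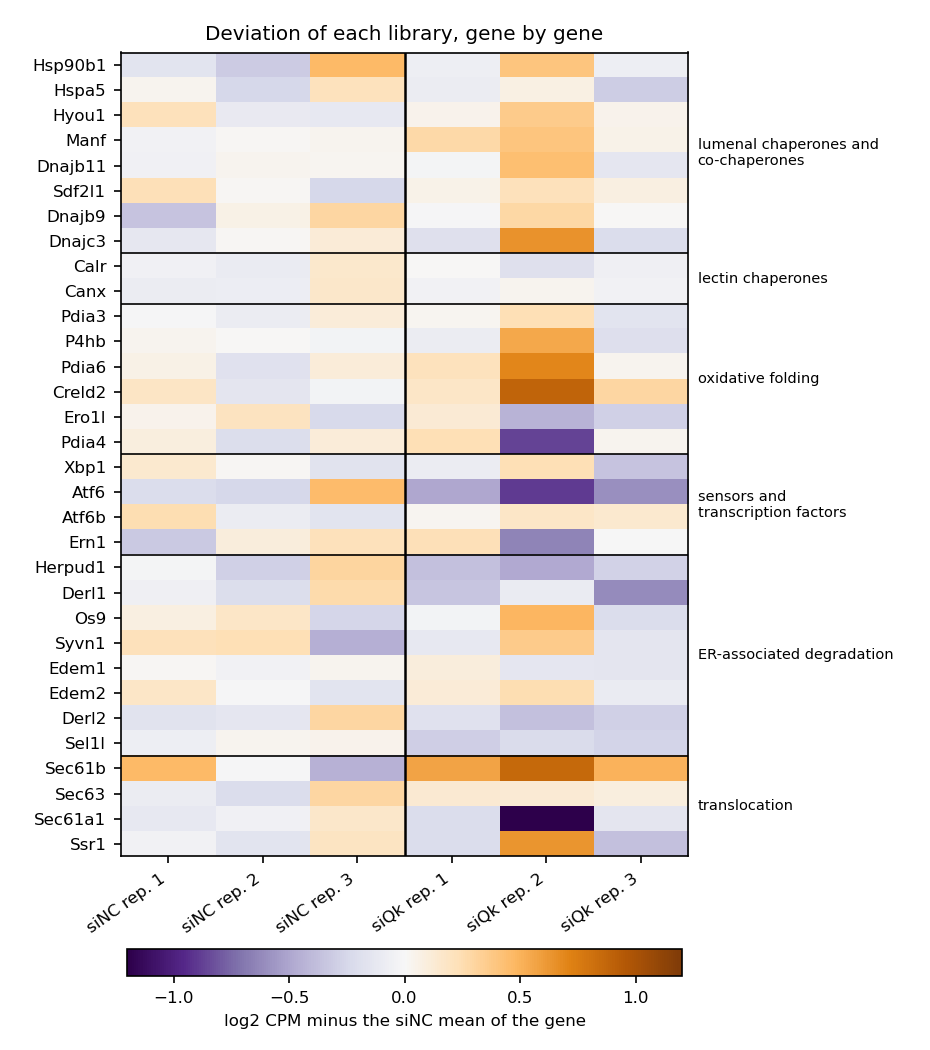
Log2 CPM of the 32 ER genes tested minus the siNC mean of the gene, for each library in columns and each gene in rows by role (orange higher, purple lower). The column of siQk replicate 2 holds most of the strong colours, orange for Creld2 and Dnajc3 and purple for Sec61a1 and Pdia4, and Atf6 is purple in all 3 siQk columns.

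The 8 tested genes with an ERSE in the window had a median log2 fold change of 0.04, with 5 above 0 and 3 below, and that of the 19 tested genes with a window and no ERSE was 0.08. Without siQk replicate 2 the medians were -0.09, with 2 above 0 and 6 below, and -0.07. In siQk replicate 2 the median deviation was 0.38 for the 8 and 0.22 for the 19. As a share of all counts, the 33 genes took 1.09% to 1.29% in siNC and 1.09% to 1.35% in siQk, with siQk replicate 2 at the top.

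The other genes of the pathway, 123 in 7 lists of which 120 were tested, also held 0 called genes by edgeR. At an unadjusted p under 0.05, 0 were higher and 8 were lower in siQk (all genes, 1.27% and 1.73%). Of the 8, 5 belonged to the list of the PERK arm and integrated stress response. In that list 12 of 13 genes were lower, with a median log2 fold change of -0.42. Ddit3, the pro-apoptotic factor CHOP, had 312, 225 and 366 RPKM in siNC and 211, 199 and 197 RPKM in siQk, a log2 difference of -0.60 between groups (SE 0.23, adjusted p = 0.9998 by edgeR). Nupr1 (-0.67), Ppp1r15a (-0.74), which restarts translation, Trib3 (-0.81) and Chac1 (-0.50) were the others, and the groups of Ppp1r15a and Trib3 overlapped. Trib3 was at -0.52 without siQk replicate 2, and Chac1 at -0.32 without siNC replicate 3. Atf4 itself, the factor that drives them, had a log2 fold change of -0.12 (SE 0.21), and Eif2ak3, which encodes PERK, one of 0.22 (SE 0.24), both with overlapping groups.

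The siNC libraries differed among themselves over this list. The median deviation was 0.07, -0.32 and 0.23 in siNC replicates 1, 2 and 3 and -0.31, -0.58 and -0.21 in siQk replicates 1, 2 and 3, so siNC replicate 2 lay with siQk. Without siNC replicate 3 the median log2 fold change was -0.19, and the count at p under 0.05 was 2. Without siNC replicate 1 or siQk replicate 2 that count was also 2, and without siQk replicate 2 the median was -0.24. By voom with library quality weights 10 of the 13 were lower, 1 at p under 0.05, with a median of -0.20. The 3 remaining genes lower at p under 0.05 were Tmbim6, an ER membrane protein that restrains cell death (-0.58), Fkbp7, a lumenal prolyl isomerase (-1.06, from 42 counts in its lowest library), and Rnf185, a degradation ligase (-0.66, or -0.36 without siNC replicate 3). Where a list had no gene under 0.05, the smallest p belonged to Prdx4 (0.39, or 0.17 without siQk replicate 2) for oxidative folding, Krtcap2 (-0.34, or -0.14 without siNC replicate 1) for glycosylation and Sec61g (0.54), the gamma subunit of the channel, for translocation. Of the 12 cytosolic heat shock chaperones, 10 were tested, 0 were called and the smallest p belonged to Dnaja1 (0.32).

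**Figure D5:**
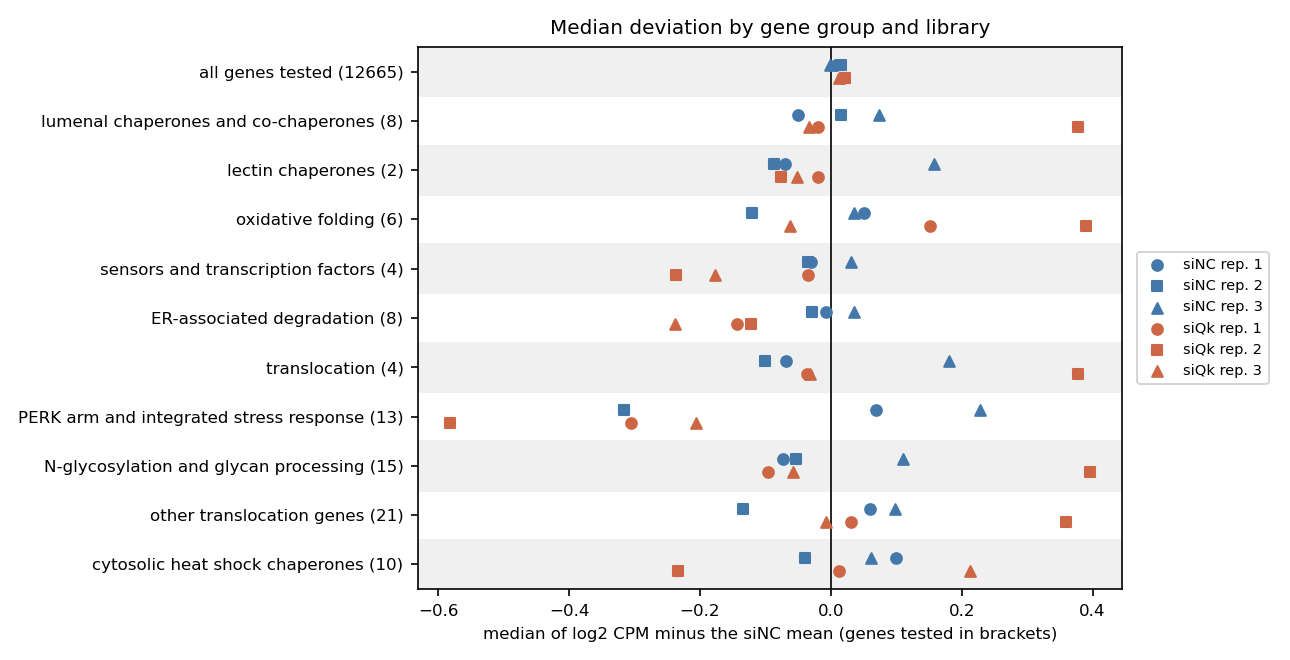
Median over the genes of each group of log2 CPM minus the siNC mean, per library, with the number of genes tested in brackets. Lumenal chaperones, oxidative folding, translocation, N-glycosylation and other translocation genes sit near 0.4 in siQk replicate 2 alone. The PERK list has siNC replicate 2 (-0.32) among the siQk values.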

How the data were processed

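Poly-A RNA of 6 NSC-34 cultures was sequenced as pairs of 75-base reads. The authors aligned reads with OLego, counted per gene with Quantas and deposited expected counts, summed exon lengths and RPKM values. The methods name different mouse builds, and the submitters' processing notes give mm10. RPKM values were rebuilt from the deposited expected counts, exon length and column total. Gene positions and exon overlap come from GRCm38 annotation, promoter windows from RefSeq GRCm38.p6.

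Expected counts were rounded, scaled by TMM and kept where average log2 CPM was above 0 (12665 genes). siQk was tested against siNC with edgeR 4.0.16 (R 4.3.3; quasi-likelihood F test), without covariates, calling genes at p under 0.01 and Benjamini-Hochberg adjusted p under 0.1 over all genes tested. SEs are from the spread of log2 CPM (prior count 2) between libraries. Single levels were compared by two-sided exact permutation tests. P-values measure the spread between these libraries. The script was tested on simulated data. The alternatives, 16 in number, were other scalings, filters and tests (DESeq2 1.42.0 and voom of limma 3.58.1 among them), a replicate block, leaving out each library and, added after the data were seen, removal of an exon length trend (loess, span 0.5).

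A gene got its values in every library where it was the highest of its role, had the smallest p of its role, had p under 0.05 or had groups that did not overlap. Of each other pathway list, genes with p under 0.05 or else the smallest p were named. Genes beyond this rule (such as Hspa5, Atf4 and Eif2ak3) were named for their role. The members and lists were chosen with earlier results of these data known.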

Additional observations from a re-analysis of the deposited data

How the results depend on the processing

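None of the ER genes was called under any of the 16 alternatives, and of 512 refitted fold changes 476 kept their sign and 36 did not. The cause was not tested. Calls over all genes, 1 in the main fit here, numbered 5 by the edgeR exact test, 19 by DESeq2 and 2 by voom with quality weights. They were 0 to 1 when a library was left out (0 without siNC replicate 1). With the replicate number as a block, 0 ER genes were called. Deviations from the group means correlated at 0.213, 0.018 and -0.17 for same-numbered libraries. For libraries of different numbers the correlations ran from -0.25 to 0.197. With 3 libraries a group these deviations are tied to each other, so this check cannot settle whether the numbers pair the samples. By voom the log2 fold change turned to -0.18 for Os9, -0.22 for Syvn1, -0.012 for Edem2, 0.0016 for Calr, -0.066 for Dnajb11, -0.14 for Dnajc3, -0.031 for Pdia3, -0.12 for P4hb, 0.13 for Pdia4, 0.068 for Ern1 and -0.19 for Ssr1, and with total counts to 0.0057 for Canx. ER gene fold changes that kept their sign but were over 1.5 times smaller by voom were -0.45 for Atf6, 0.30 for Creld2, -0.22 for Herpud1, 0.16 for Manf, 0.038 for Sdf2l1, 0.039 for Dnajb9, -0.00031 for Canx, 0.19 for Pdia6, 0.064 for Hyou1, -0.17 for Derl2, -0.034 for Edem1 and -0.20 for Sec61a1. Those over 1.5 times larger were -0.24 for Xbp1 and 0.20 for Sec63. Leaving out a library gave -0.14 to -0.021 for Edem1, 0.00061 to 0.18 for Edem2, -0.13 to 0.23 for Os9, -0.17 to 0.13 for Syvn1, -0.069 to 0.064 for Canx, -0.12 to 0.34 for Hsp90b1, -0.23 to 0.0029 for Hspa5, -0.084 to 0.22 for Dnajb11, -0.0076 to 0.23 for Sdf2l1, -0.083 to 0.23 for Dnajb9, -0.20 to 0.28 for Dnajc3, -0.073 to 0.13 for Pdia3, -0.15 to 0.26 for P4hb, -0.36 to 0.13 for Pdia4, -0.23 to 0.073 for Xbp1, -0.31 to 0.094 for Ern1, -0.0063 to 0.27 for Sec63 and -0.30 to 0.26 for Ssr1. Atf6 had an unadjusted p under 0.05 in all 17 fits, the reported one included, with an adjusted p of at least 0.764, while Sec61b did in 14 and Creld2 in 11. Of the other pathway genes, voom gave -0.30 for Tmbim6, -0.39 for Nupr1, -0.45 for Ppp1r15a, -0.41 for Trib3, -0.28 for Chac1, -0.17 for Krtcap2 and 0.26 for Prdx4.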
